A study of Homo sapiens with 39 samples.

Results

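Axon guidance ligands and receptors were taken from the gene-level table as every protein-coding gene named SEMA3 to SEMA7, PLXNA to PLXND, NRP1, NRP2, EPHA or EPHB with a number, EFNA or EFNB with a number, SLIT1 to SLIT3, ROBO1 to ROBO4, UNC5A to UNC5D, NTN1, NTN3, NTN4, DCC or NEO1. The names gave 69 genes of 60671 in the table, of which 19966 are protein-coding. They are 20 semaphorins, 9 plexins, 2 neuropilins, 9 EPHA and 5 EPHB receptors, 5 ephrin-A and 3 ephrin-B ligands, 3 slits, 4 robos, 4 UNC5 receptors, 3 netrins and 2 netrin receptors (DCC and NEO1). No measured level entered this naming rule, but the genes were chosen with earlier results of these data known.

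These proteins steer growing axons and migrating cells by attraction or repulsion. Secreted class 3 semaphorins signal through complexes of a neuropilin and a plexin, while membrane-bound semaphorins mostly bind plexins directly. Eph receptor tyrosine kinases read ephrins on the neighbouring cell, slits act through robo receptors, and netrins act through DCC, neogenin and UNC5 receptors. The same systems guide neural crest cells, the embryonic source of melanocytes, and shape blood vessels.

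The samples were 39 RNA-seq libraries of A375 and WM115, a pair of established human melanoma cell lines. Each line was present as unedited cells (WT) and as clones lacking a SOX10 enhancer region, R1 or R4; SOX10 is the transcription factor that specifies melanocytes from neural crest. A375 had WT (4 libraries), R1 clones 1.1 (3) and 1.2 (4), and R4 clones 4.1 (4) and 4.2 (3). WM115 had WT (4), R1 clones 1.1 (5) and 1.2 (3), R4 clones 4.1 (3) and 4.2 (3), and clone 1.3 (3), whose title gives an R1 number and whose genotype label gives R4, so that it was kept apart. Each group is 1 clone, so a test over its libraries compares that clone with WT and not the deletion with its absence. Nothing in the labels says that libraries of a group came from separate cultures, and the p-values then measure the spread between libraries, which may be technical.

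Values are TPM, a measure of transcript abundance, which correct for gene length and library size, and log2 differences were taken on log2(TPM + 1), a scale that understates the change of low genes. A gene was called at an adjusted p under 0.05 with a log2 difference of at least 1 in size (limma, Benjamini-Hochberg over all genes tested in the line). Read depth is unknown for these values. SOX10 itself lay between 630 and 706 TPM in A375 WT. It was 381 to 667 TPM in A375 clone 1.1, 406 to 473 TPM in clone 1.2, 711 to 876 TPM in clone 4.1 and 488 to 647 TPM in clone 4.2. SOX10 was not called in any A375 clone. In WM115 WT it lay between 449 and 553 TPM. In the WM115 clones it lay between 321 and 525 TPM apart from clone 1.2, where it was 272 and 279 TPM in 2 libraries and 9.56 TPM in library 3. That library, and library 3 of clone 1.3 (ribosomal protein genes at 11.5% of TPM), stood apart from the others of their clone. In WM115, the ribosomal protein share was 12.0 to 13.6% in WT and 16.2 to 18.6% in the clones other than that library, a difference that cannot be told apart from the clone groups. In bulk RNA, fewer cells that express a gene and less RNA per cell cannot be told apart. Blood markers (4 genes) summed to at most 1.19 TPM in any library.

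Of the 69 genes, 47 averaged at least 1 TPM in A375 WT, 40 in WM115 WT and 39 in both. Semaphorins, plexins and Eph receptors supplied the most abundant transcripts. In A375 WT these were SEMA3B at 165 ± 28.2 TPM (SD, n = 4), a secreted class 3 semaphorin, EPHA2 at 70.2 ± 29.6 TPM, an EphA receptor tyrosine kinase, and PLXNB2 at 59.0 ± 15.0 TPM, a receptor for class 4 semaphorins. In WM115 WT they were PLXNB2 at 98.0 ± 10.3 TPM (SD, n = 4), the semaphorin co-receptor NRP2 at 73.8 ± 11.2 TPM, and SEMA3B at 67.1 ± 31.3 TPM. The SEMA3B ranges of the lines did not overlap, at 123 to 181 TPM in A375 WT and 34.3 to 106 TPM in WM115 WT. By contrast, 11 genes stayed under 1 TPM in every library: SEMA5B, PLXNA4, EPHA5, EPHA8, EPHA10, EPHB6, EFNA2, SLIT3, UNC5A, UNC5C and DCC, the classical netrin receptor. None of the 69 was listed at 0 throughout.

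Families differed in how many members were expressed. At a WT mean of at least 1 TPM there were 16 of 20 semaphorins and 7 of 9 plexins in each line, and both neuropilins. Of 9 EPHA receptors 4 reached it in A375 and 1, EPHA2, in WM115, and of 4 robos 4 and 2. Of 5 ephrin-A ligands 4 reached it in each line, as did all 3 ephrin-B ligands. None of the 4 UNC5 netrin receptors did so in either line; UNC5B, the highest in WT, averaged 0.960 TPM in A375 and 0.237 TPM in WM115. Over the 9 clones, 33 of the 56 genes tested in a line were called in at least 1 clone, against 19.1% of all 18402 genes tested. They were 12 of 19 tested semaphorins, 3 of 8 plexins, both neuropilins, 3 of 6 EPHA and 3 of 4 EPHB receptors, 2 of 3 ephrin-B ligands, both tested slits, 3 of 4 robos, both tested netrins and NEO1. SLIT1 and SEMA6D, among the 33, were tested only because they were high in the clone that called them. Of 4 tested ephrin-A ligands 0 were called by limma, and 9 of 36 combinations with a clone had an unadjusted p under 0.05. Over all genes this count ran from 1297 of 16692 in A375 clone 4.2 to 6300 of 16997 in WM115 clone 4.1. Only 1 UNC5 receptor passed the filter on low values, in A375, so the family was largely untested.

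**Figure D1:**
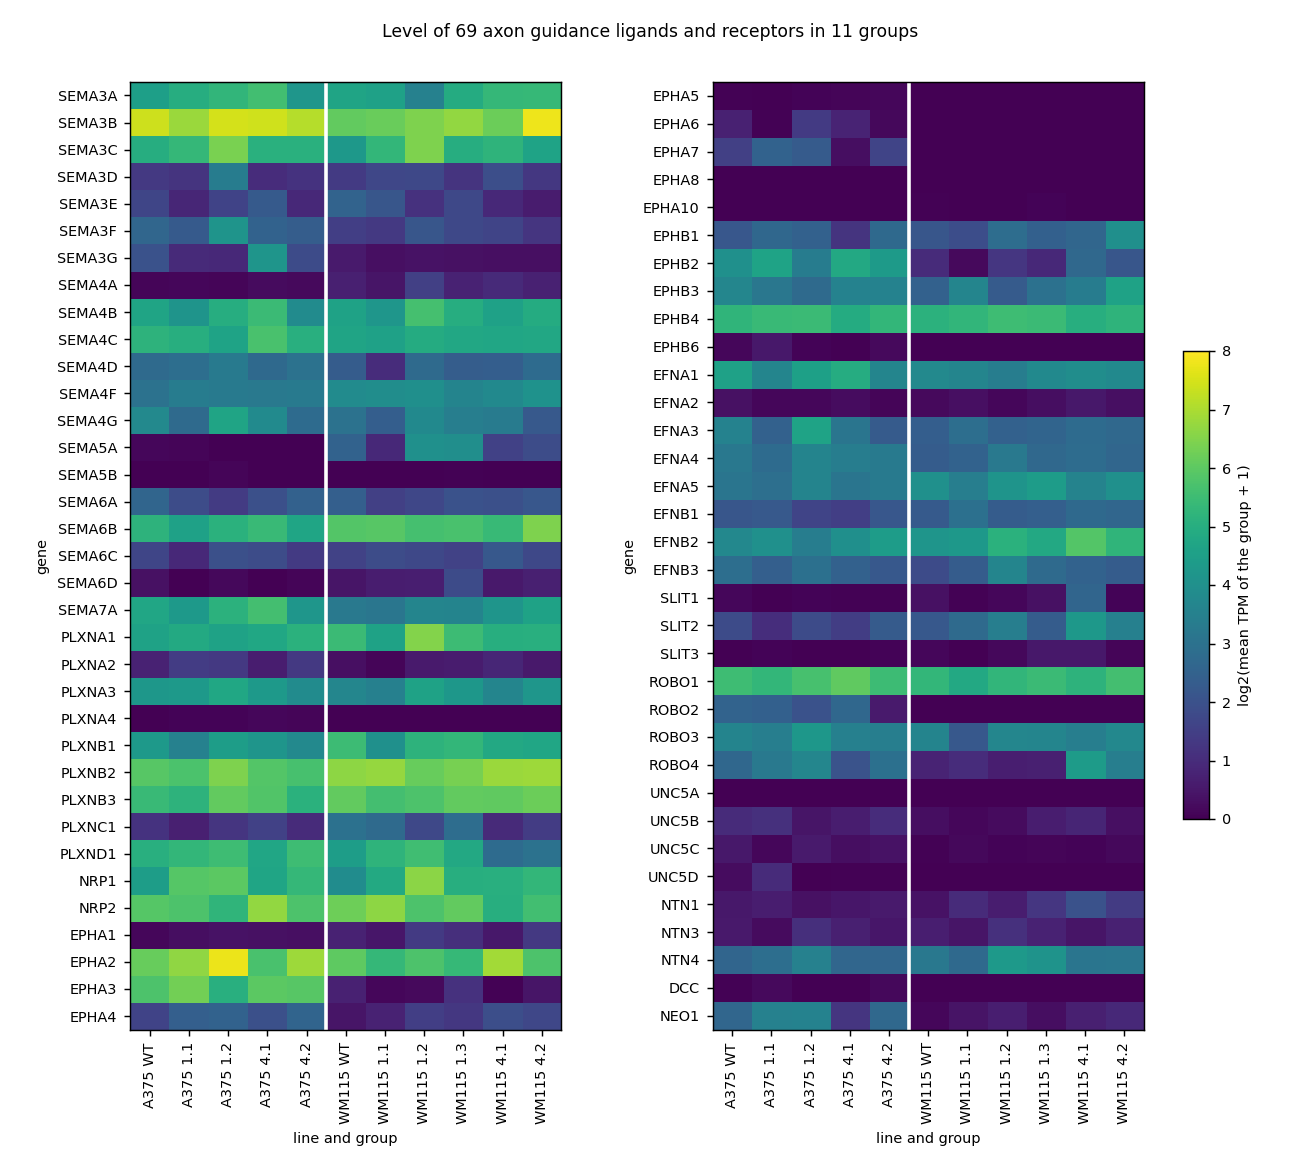
Mean level of each of the 69 genes (rows) in each of the 11 groups (columns), coloured as log2 of the mean TPM plus 1, with A375 to the left of the white line and WM115 to the right. SEMA3B is bright in all groups and EPHA3 is bright in A375 alone. NEO1 is dim in A375 and darker in WM115, and the rows of the 11 genes under 1 TPM are dark throughout.

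Among called genes with a level above 0 in both lines, EPHA3, EPHB2 and NEO1 (higher in A375) and SEMA5A (lower) differed most. Between WT cells, 15 of 57 tested genes were called (26.3%), 12 higher and 3 lower in A375. Of all 18662 genes tested 20.0% were called, 8.54% higher and 11.5% lower. EPHA3, an EphA receptor, was 57.8, 59.7, 56.0 and 42.0 TPM in A375 WT and 0.662, 0.900, 0.15 and 0.963 TPM in WM115 WT. All A375 libraries were far above all WM115 libraries, by 5.06 on the log2 scale (SE 0.27, adjusted p = 1.02e-16). EPHB2, an EphB receptor, averaged 15.1 ± 2.86 against 0.981 ± 0.520 TPM (SD, n = 4 each; log2 difference 3.04, SE 0.25, adjusted p = 5.98e-12). NEO1, the netrin and repulsive guidance molecule receptor neogenin, averaged 5.19 ± 1.73 against 0.092 ± 0.078 TPM (log2 difference 2.46, SE 0.21, adjusted p = 1.44e-11). The slit receptor ROBO2 (2.6 to 7.77 TPM) and EPHA7 (1.38 to 2.5 TPM) were present in all A375 WT libraries and were listed at 0 in all 21 WM115 libraries, so that no fold is given.

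ROBO4 was also called higher in A375 (5.31 ± 3.79 against 0.735 ± 0.729 TPM), although 1 A375 library at 1.04 TPM lay below the highest WM115 library at 1.75 TPM. Genes lower in A375 were a semaphorin and 2 plexins. SEMA5A, a membrane semaphorin with thrombospondin repeats, was 0.109 ± 0.092 against 4.78 ± 2.52 TPM (log2 difference -2.26, SE 0.27, adjusted p = 2.67e-08). PLXNC1, the receptor of SEMA7A, was 1.26 ± 0.422 against 6.83 ± 4.27 TPM (log2 difference -1.62). PLXNB1, the receptor of SEMA4D, was 18.8 ± 7.67 against 43.4 ± 7.56 TPM (log2 difference -1.22). SEMA7A itself went the other way from its receptor, at 25.6 ± 3.33 TPM in A375 and 8.41 ± 1.65 TPM in WM115 (log2 difference 1.51). The remaining genes called higher in A375 were SEMA3B, SEMA3F, SEMA3G, EPHA4 and EPHB3, with differences from 1.16 to 1.46.

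**Figure D2:**
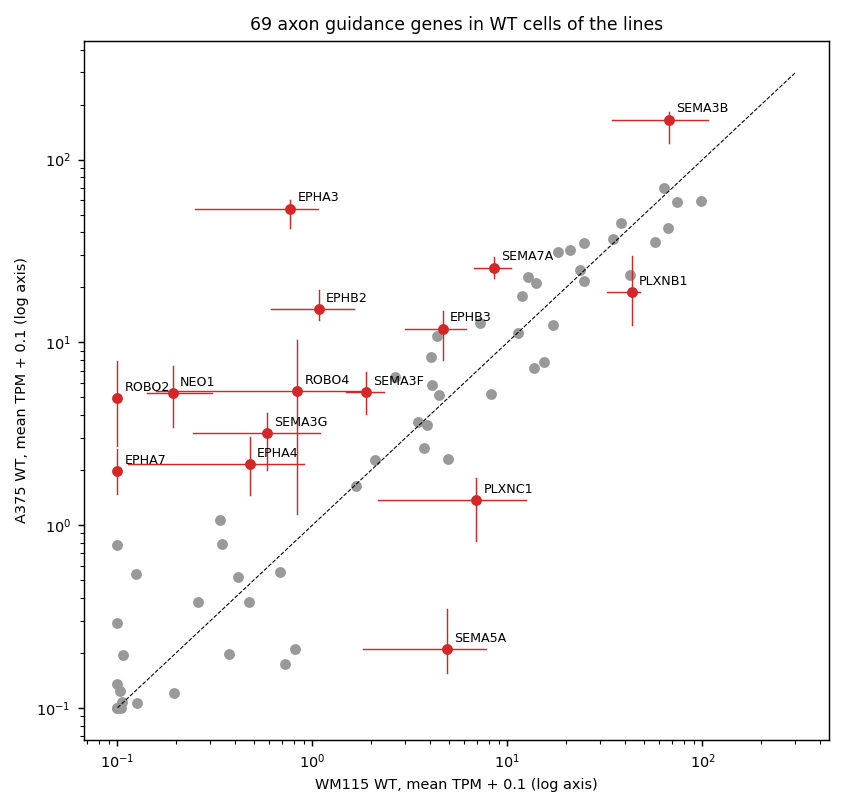
Mean TPM plus 0.1 of the 69 genes in WT cells of WM115 (horizontal log axis) and A375 (vertical log axis). Red points are the 15 called genes with lines from the lowest to the highest of 4 libraries, grey points are the other genes, and the dashed line marks equal levels. EPHA3, EPHB2, ROBO2 and NEO1 lie far above the dashed line and SEMA5A far below it.

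Deletion clones were each compared with WT of their line. Over the 9 clones, 440 combinations of gene and clone were tested and 49 were called, 12 in A375 and 37 in WM115, 30 higher and 19 lower. They fell on 33 genes: 10 were called in an A375 clone, 25 in a WM115 clone, and NRP1 and SEMA3C in a clone of both lines. The libraries of clone and WT did not overlap in 47 of the 49. The calls were made on these same libraries, so little overlap follows from the calling and adds no support. The share without overlap among all called genes was not counted. Clones of a line share the same WT libraries, so their comparisons are not independent. Of the 49 calls, 2 were of genes that passed the filter on low values only through the clone in which they were high, SLIT1 in WM115 clone 4.1 and SEMA6D in WM115 clone 1.3, and these had to differ.

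**Figure D3:**
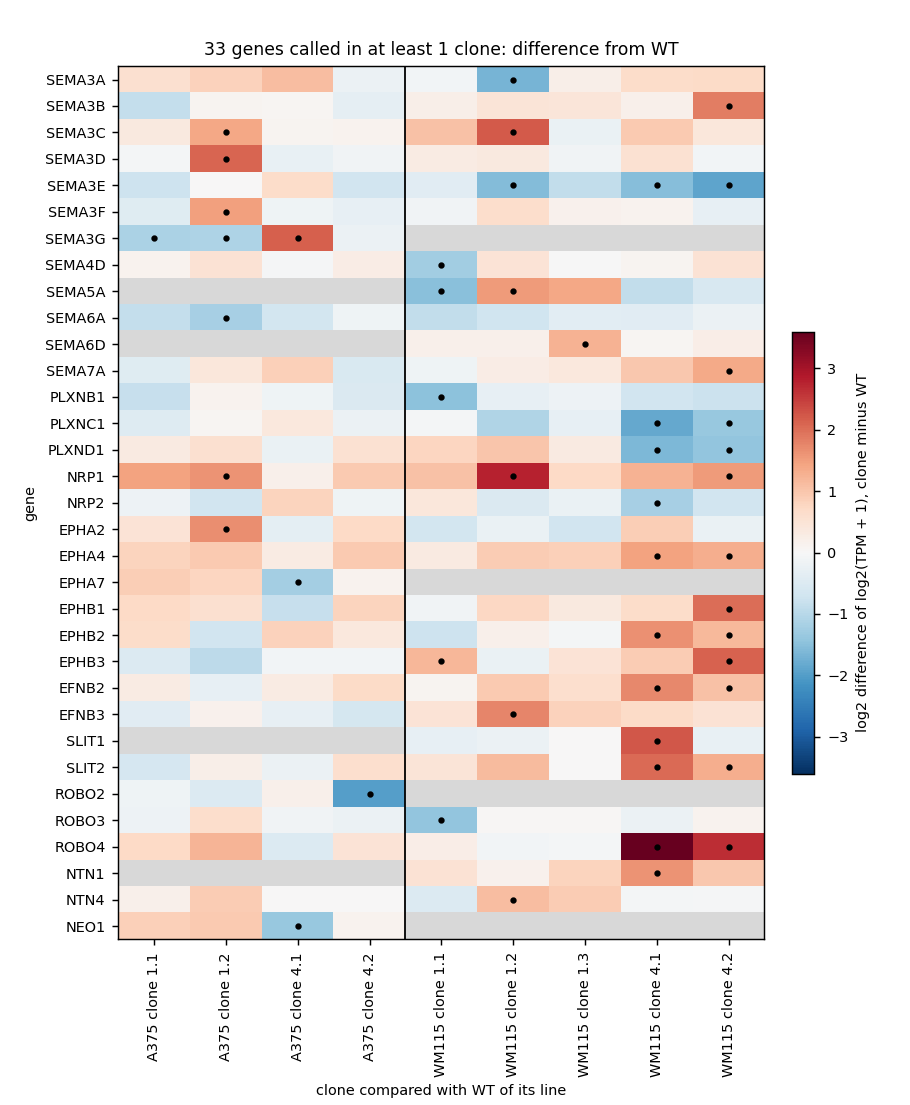
Log2 difference from WT (colour, red higher and blue lower) of the 33 genes called in at least 1 clone (rows) in the 9 clones (columns). Black dots mark the 49 called combinations and grey cells mark genes not tested in that line; the R4 clones of WM115 carry 24 of the dots.

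The R4 clones of WM115 held the most calls, 11 of 48 tested genes in clone 4.1 (22.9%) and 13 of 48 in clone 4.2 (27.1%). The 11 include SLIT1, which was tested only because it was high in clone 4.1. Of all 16997 genes tested, 7.57% were called in clone 4.1, 3.20% as higher and 4.37% as lower. In clone 4.2 it was 6.60%, with 2.52% higher and 4.08% lower. Axon guidance genes were called higher 7 times and lower 4 times in clone 4.1, against 10 and 3 times in clone 4.2. The median log2 difference was 0.17 over the tested axon guidance genes and -0.10 over all genes in clone 4.1, and 0.22 against -0.10 in clone 4.2. Both clones called 8 genes in the same direction. The robo family member ROBO4, the slit SLIT2, the Eph receptors EPHB2 and EPHA4 and the transmembrane ephrin EFNB2 rose. The semaphorin SEMA3E, its receptor PLXND1 and the SEMA7A receptor PLXNC1 fell.

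Promoters of 4 of these genes are shown because they moved together in the same pair of clones, 2 up (ROBO4 and EFNB2) and 2 down (PLXND1 and PLXNC1). Sequences are from RefSeq on GRCh38.p14 and run 5′ to 3′ on the strand of the gene from 250 bases before a RefSeq transcription start to 50 bases from it on. Capitals mark matches on either strand to the E-boxes CACGTG and CATGTG, a class of motif bound by MITF, and to ACAAAG and ACAATG, core motifs of SOX proteins. ROBO4 is at chr11:124897816-124898115 on the minus strand, EFNB2 at chr13:106535613-106535912 (minus), PLXND1 at chr3:129606627-129606926 (minus) and PLXNC1 at chr12:94148327-94148626 (plus).
ROBO4: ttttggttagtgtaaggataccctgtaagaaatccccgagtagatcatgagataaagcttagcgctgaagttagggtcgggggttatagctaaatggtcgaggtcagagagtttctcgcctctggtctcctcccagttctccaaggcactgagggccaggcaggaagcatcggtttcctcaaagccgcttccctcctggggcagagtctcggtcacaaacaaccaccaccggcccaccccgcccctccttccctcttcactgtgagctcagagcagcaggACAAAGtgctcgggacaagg
EFNB2: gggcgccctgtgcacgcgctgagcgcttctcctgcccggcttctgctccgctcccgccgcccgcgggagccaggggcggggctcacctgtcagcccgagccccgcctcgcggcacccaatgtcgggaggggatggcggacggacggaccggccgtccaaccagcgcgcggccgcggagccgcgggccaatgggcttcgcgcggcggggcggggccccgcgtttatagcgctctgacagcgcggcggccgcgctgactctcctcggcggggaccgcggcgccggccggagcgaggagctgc
PLXND1: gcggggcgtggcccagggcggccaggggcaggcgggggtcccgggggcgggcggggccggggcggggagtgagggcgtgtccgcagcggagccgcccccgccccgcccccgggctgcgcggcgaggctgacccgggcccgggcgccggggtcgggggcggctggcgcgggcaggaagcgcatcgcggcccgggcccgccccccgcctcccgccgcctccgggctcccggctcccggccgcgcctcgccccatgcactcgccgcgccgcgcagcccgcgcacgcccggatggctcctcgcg
PLXNC1: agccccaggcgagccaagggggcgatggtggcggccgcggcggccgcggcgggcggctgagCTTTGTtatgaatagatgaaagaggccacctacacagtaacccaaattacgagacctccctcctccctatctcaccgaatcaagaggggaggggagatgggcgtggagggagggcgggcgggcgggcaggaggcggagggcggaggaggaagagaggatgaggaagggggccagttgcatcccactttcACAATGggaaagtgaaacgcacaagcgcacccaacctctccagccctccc

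On GRCh38 the genes span chr11:124883691-124898500 (ROBO4), chr13:106489731-106535662 (EFNB2), chr3:129555175-129606818 (PLXND1), chr12:94148723-94307675 (PLXNC1), chr4:20253260-20620561 (SLIT2), chr1:22710839-22921500 (EPHB2), chr2:221418027-221574202 (EPHA4) and chr7:83363238-83649113 (SEMA3E). ROBO4 held 1 match, ACAAAG, and PLXNC1 held 2, CTTTGT (the reverse complement of ACAAAG) and ACAATG. SEMA3E, whose window is not shown, held 3 matches, ACAAAG on both strands and the E-box CATGTG. EFNB2 and PLXND1 held none, nor did EPHA4, EPHB2 and SLIT2. Of the 8 promoter windows 3 held a match, where 37.4% of 35116 promoter windows of the same length held at least 1 of the 4 motifs. The start used lay 416 bases from that of the leading ROBO4 transcript, 142 for PLXND1, 146 for PLXNC1, 1659 for SLIT2 and 0 for EFNB2 and SEMA3E. A match describes the letters and shows no binding.

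Of SLIT2 and ROBO4, ROBO4 rose more. ROBO4 was 0.427, 0.700, 1.75 and 0.057 TPM in WM115 WT, 18.4, 30.0 and 11.6 TPM in clone 4.1, and 9.24, 6.15 and 13.7 TPM in clone 4.2. Every R4 library was above every WT library. The log2 difference was 3.59 in clone 4.1 (SE 0.39, adjusted p = 5.06e-06) and 2.65 in clone 4.2 (SE 0.39, adjusted p = 0.000217). ROBO4 averaged 1.02, 0.580 and 0.620 TPM in clones 1.1, 1.2 and 1.3, within the range of WT. The leading ROBO4 transcript in WM115 is protein-coding and held 51.1% of the gene's TPM. Chromosome 11, which carries ROBO4, had a median log2 difference of 0.29 over its tested genes in clone 4.1 and 0.02 in clone 4.2. In A375, ROBO4 averaged 3.14 TPM in clone 4.1 and 6.69 TPM in clone 4.2 against 5.31 TPM in WT, with neither called.

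ROBO4 is known as a robo of endothelial cells, so the 4 endothelial markers were read beside it. PECAM1 was called higher in both R4 clones and was 2.97 to 4.90 TPM in clone 4.1, 3.27 to 7.45 TPM in clone 4.2 and 0.142 to 2.94 TPM in WT. The other 3 were near 0: CDH5 did not exceed 0.058 TPM in clone 4.1 and was listed at 0 in clone 4.2, and VWF and TEK stayed at or below 0.058 TPM in both. The sum of the 4 was 3.11 to 5.05 TPM and 3.31 to 7.47 TPM in the R4 clones and 0.229 to 3.19 TPM in WT. It was 2.74 to 16.4 TPM in clone 1.2, in which ROBO4 averaged 0.580 TPM.

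SLIT2, a secreted repellent, was 3.70, 3.52, 5.19 and 2.10 TPM in WT, 17.1, 25.5 and 12.4 TPM in clone 4.1, and 12.2, 8.64 and 9.81 TPM in clone 4.2. The R4 libraries were again all above WT, by 2.05 in clone 4.1 (SE 0.42, adjusted p = 0.00203) and 1.31 in clone 4.2 (SE 0.42, adjusted p = 0.0336). The clone 4.2 call was lost without WT library 1, 2 or 4 or any library of the clone (log2 difference of 1.13 to 1.52 over all alternatives). SLIT2 averaged 9.67 ± 5.35 TPM in R1 clone 1.2 and was not called there (log2 difference 1.13, adjusted p = 0.0582). Its paralogue SLIT1 averaged 5.07 ± 1.65 TPM in clone 4.1 and 0.273 ± 0.199 TPM in WT (log2 difference 2.23) and did not exceed 0.522 TPM in any other WM115 library. SLIT1 was thus tested only because it was high in clone 4.1, and its call adds no support. ROBO1, the most abundant robo, averaged 35 and 47.5 TPM in the R4 clones and 38.1 TPM in WT.

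Among Eph receptors and ephrins, the changes called in the R4 clones of WM115 were all increases. EFNB2, a transmembrane ephrin that binds EphB receptors and EPHA4, was 16.0, 19.5, 21.5 and 11.2 TPM in WT, 67.2, 51.3 and 54.6 TPM in clone 4.1, and 43.1, 28.4 and 37.5 TPM in clone 4.2. No R4 library overlapped WT, and the log2 difference was 1.73 (SE 0.26, adjusted p = 0.000201) in clone 4.1 and 1.06 (SE 0.26, adjusted p = 0.00909) in clone 4.2. The second call was lost without WT library 4 or clone library 1, where the difference was under 1. Chromosome 13, which carries EFNB2, had a median log2 difference of -0.58 over its tested genes in clone 4.2 and 0.02 in clone 4.1. The part of the chromosome in the EFNB2 values was not tested.

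EPHB2 was 0.558, 1.32, 1.53 and 0.515 TPM in WT, 4.42, 8.59 and 3.35 TPM in clone 4.1, and 3.33, 3.25 and 3.51 TPM in clone 4.2. The groups were apart, with differences of 1.66 (adjusted p = 0.00103) and 1.18 (adjusted p = 0.0122). EPHA4, which binds ephrins of both classes, was 0.074, 0.803, 0.615 and 0.013 TPM in WT, 1.83, 4.26 and 2.17 TPM in clone 4.1, and 2.66, 1.99 and 2.23 TPM in clone 4.2. These groups were also apart, by 1.44 (adjusted p = 0.00312) and 1.3 (adjusted p = 0.00760), at levels that stayed low. Of the R4 clones, 4.2 alone passed the thresholds for EPHB1 (14.7 ± 2.69 against 3.36 ± 2.6 TPM, log2 difference 2.01) and EPHB3 (23.4 ± 6.92 against 4.54 ± 1.3 TPM, log2 difference 2.13). In clone 4.1 EPHB3 differed by 0.90 (adjusted p = 0.0408), under the minimum difference.

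Of the plexins, 2 fell in both R4 clones of WM115 and the others were not called there. PLXND1, which binds SEMA3E directly, was 22.4, 19.4, 13.4 and 28.0 TPM in WT, 6.84, 6.18 and 4.85 TPM in clone 4.1, and 8.41, 7.75 and 4.98 TPM in clone 4.2. All 6 R4 libraries were below all WT libraries, by -1.61 in clone 4.1 (SE 0.33, adjusted p = 0.00191) and -1.42 in clone 4.2 (SE 0.33, adjusted p = 0.00587). In R1 clones 1.1 and 1.2 the mean was 35.5 and 45.4 TPM against 20.8 TPM in WT, with neither called. Chromosome 3, which carries PLXND1, had a median difference of -0.35 in clone 4.1 and -0.07 in clone 4.2, and the part of this in the clone 4.1 value was not tested.

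PLXNC1 was 7.44, 5.51, 2.06 and 12.3 TPM in WT, 0.766, 1.02 and 1.03 TPM in clone 4.1, and 1.41, 1.62 and 2.0 TPM in clone 4.2. The lowest WT library lay just above the highest R4 library. The difference was -1.83 in clone 4.1 (adjusted p = 0.00948) and -1.37 in clone 4.2 (adjusted p = 0.0468), and the second call was lost in 12 of 18 alternative fits (log2 difference -1.76 to -1.05), among them each that left out WT library 1, 2 or 4 or a library of clone 4.2. Its ligand SEMA7A, a membrane-anchored semaphorin, was called higher in clone 4.2 (23.5 ± 7.73 against 8.41 ± 1.65 TPM, log2 difference 1.35) and differed by 0.97 in clone 4.1 (adjusted p = 0.0307), under the minimum difference.

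SEMA3E was 6.14, 4.78, 1.79 and 6.76 TPM in WT, 0.923, 0.591 and 1.23 TPM in clone 4.1, 0.072, 0.953 and 0.533 TPM in clone 4.2, and 0.465, 3.13 and 0.060 TPM in R1 clone 1.2. Both R4 clones were below every WT library, while library 2 of clone 1.2 lay within the WT range. The differences were -1.53 (SE 0.48, adjusted p = 0.0278), -1.89 (SE 0.48, adjusted p = 0.0106) and -1.56 (SE 0.48, adjusted p = 0.0276) in that order. The calls in clones 4.1 and 1.2 were lost in 10 of 18 alternative fits each, including those without WT library 1, 2 or 4, without library 1 or 2 of clone 4.1, and without library 1 or 3 of clone 1.2. The call in clone 4.2 was lost without its library 1. The leading SEMA3E transcript in WM115 was annotated as a processed transcript without coding sequence, with 35.5% of the gene's TPM.

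**Figure D4:**
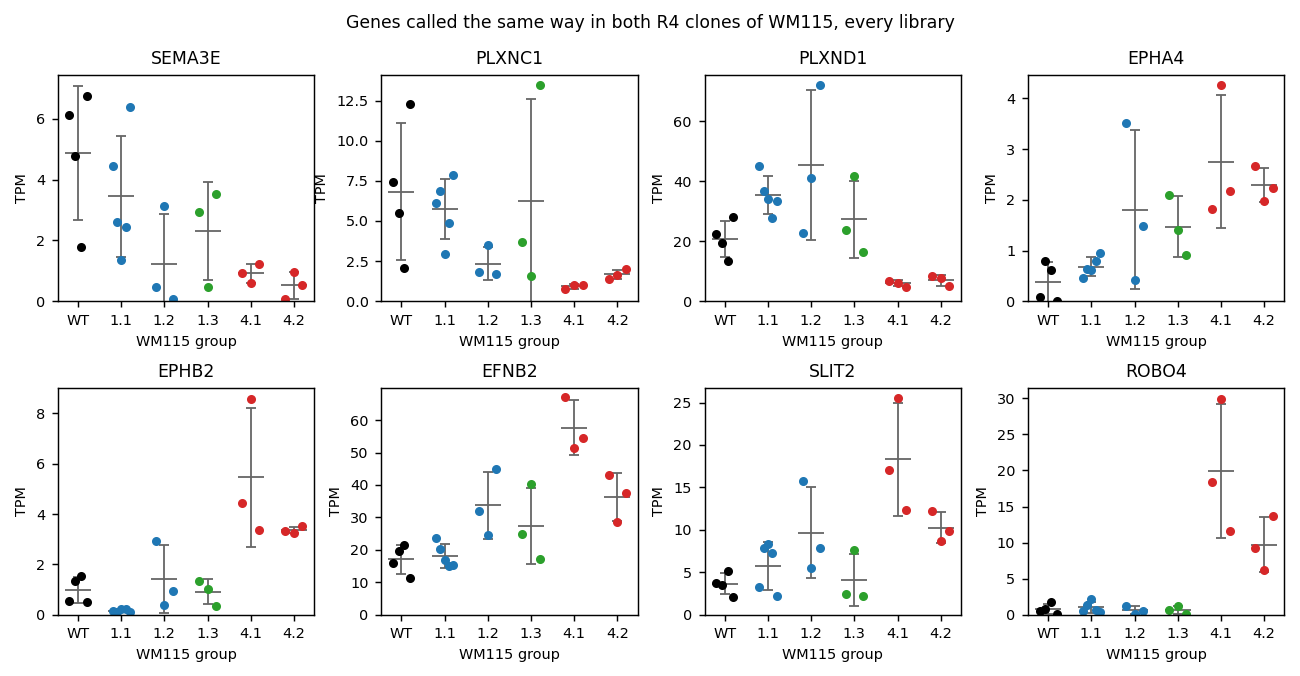
TPM, by group, of the 8 genes that both WM115 R4 clones called in 1 direction. Each point is 1 library (black WT, blue R1 clones, green clone 1.3, red R4 clones), grey bars show the mean and SD, and the axes start at 0. Red points lie above black points for EPHA4, EPHB2, EFNB2, SLIT2 and ROBO4 and below them for SEMA3E, PLXNC1 and PLXND1.

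Other calls were in 1 R4 clone each. In clone 4.1 the netrin NTN1, a secreted guidance cue, averaged 3.06 ± 0.674 TPM against 0.316 ± 0.067 TPM (log2 difference 1.61). NRP2 averaged 31.3 ± 2.23 TPM against 73.8 ± 11.2 TPM (log2 difference -1.20). In clone 4.2 SEMA3B averaged 224 ± 28.0 TPM against 67.1 ± 31.3 TPM (log2 difference 1.84) and NRP1 38.6 ± 5.28 TPM against 13.8 ± 7.78 TPM (log2 difference 1.54). Some melanocyte genes moved in the same clones. Of 8 markers, TYR, DCT, MLANA, PMEL and MITF were called lower in clone 4.1, and TYR, DCT, MLANA and MITF in clone 4.2. None of the 8 was called higher. S100B was 418 to 706 TPM in clone 4.1 and 311 to 603 TPM in clone 4.2, against 259 to 405 TPM in WT. S100A1 was 210 to 235 TPM in clone 4.1 and 564 to 778 TPM in clone 4.2, against 419 to 501 TPM in WT. The sum of the 8 was 1452 to 3264 TPM in WT, 1006 to 1356 TPM in clone 4.1 and 1439 to 1763 TPM in clone 4.2, and TYR was listed at 0 in clone 4.1. The keratin gene KRT14 was called higher in both, at 1.36 to 3.65 TPM, and the fibroblast gene DCN in clone 4.1, at 2.21 to 4.34 TPM. Another fibroblast gene, LUM, was called lower in clone 4.2, at 1.56 to 2.33 TPM against 2.73 to 26.4 TPM in WT. The part of these markers in the axon guidance results was not tested.

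WM115 libraries fell into a set with mitochondrial transcripts above 7.5% of TPM, which held all 4 WT libraries, 1 of 3 libraries of clone 4.1 and 2 of 3 of clone 4.2, and a set below it. Within the set above 7.5%, ROBO4 stayed called in both R4 clones (log2 difference 2.95 and 2.65). The other 7 genes kept their direction there with differences from 0.94 to 1.85 in size, and none of them passed the test. With the set as a term of the model, NRP1 (1.36), SLIT2 (1.14), EFNB2 (0.96) and PLXNC1 (-1.3) lost the call in clone 4.2 and SEMA3E (-1.19) in clone 4.1.

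In the R1 clones of WM115 the calls shared SEMA3E, NRP1 and EPHB3 with an R4 clone, each in the same direction, and otherwise fell on genes not called in the R4 clones. Clone 1.1 had 5 of 48 called (10.4%), 1 higher and 4 lower, against 4.88% of all genes (1.22% higher, 3.66% lower), with a median of -0.09 over the tested axon guidance genes and -0.12 over all genes. A ligand and its receptor were both lower: SEMA4D averaged 1.04 ± 0.201 TPM (SD, n = 5) against 4.0 ± 1.58 TPM in WT (n = 4; log2 difference -1.25, adjusted p = 0.00171), and PLXNB1 15.3 ± 4.86 against 43.4 ± 7.56 TPM (log2 difference -1.48, adjusted p = 0.000216). ROBO3, a divergent robo that regulates midline crossing, averaged 3.59 ± 0.952 against 11.2 ± 1.90 TPM (log2 difference -1.42, adjusted p = 7.91e-05). SEMA5A averaged 0.893 ± 0.417 against 4.78 ± 2.52 TPM (log2 difference -1.51). EPHB3 was higher, at 11.5 ± 2.20 against 4.54 ± 1.3 TPM (log2 difference 1.19). Chromosome 3 (PLXNB1) and chromosome 11 (ROBO3) had median differences of -0.32 and -0.27 in this clone, whose part in those values was not tested. The markers TYR (0.094 to 0.713 against 1.17 to 23.5 TPM in WT) and LUM (0.529 to 1.66 against 2.73 to 26.4 TPM) were called lower. The melanocyte marker S100B was 485 to 780 TPM against 259 to 405 TPM in WT and was not called. The part of these markers was not tested either. Of the 5 libraries 2 had mitochondrial transcripts above 7.5% of TPM, as all WT libraries did. Within that set PLXNB1 (-1.13) and ROBO3 (-1.20) stayed called, while SEMA4D (-1.23, adjusted p = 0.0711), SEMA5A (-1.65, adjusted p = 0.0684) and EPHB3 (0.96, adjusted p = 0.168) did not. EPHB3 also lost the call with the set as a term (0.91).

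WM115 clone 1.2 had 7 of 48 called (14.6%), 5 higher and 2 lower, against 7.61% of all genes (4.49% higher, 3.11% lower), with a median of 0.22 against -0.02 over all genes. NRP1, the co-receptor of class 3 semaphorins and of vascular endothelial growth factor, was 11.2, 11.1, 25.2 and 7.74 TPM in WT and 87.6, 58.2 and 146 TPM in the clone. Every clone library was above every WT library (log2 difference 2.76, SE 0.50, adjusted p = 0.00154). SEMA3C, a secreted semaphorin that binds neuropilins, was 15.4, 14.4, 23.3 and 19.3 TPM in WT and 74.6, 82.9 and 102 TPM in the clone. These groups were apart too (log2 difference 2.20, SE 0.59, adjusted p = 0.0145). The ephrin EFNB3 averaged 11.5 ± 5.33 against 2.55 ± 0.545 TPM (log2 difference 1.75), SEMA5A 15.0 ± 5.85 against 4.78 ± 2.52 TPM (1.53), and the basement membrane netrin NTN4 18.8 ± 4.29 against 8.14 ± 1.27 TPM (1.1).

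SEMA3A, the prototype axon repellent, was lower in clone 1.2 (log2 difference -1.68, adjusted p = 0.0138) and rested on library 3. It was 19.5, 10.4 and 1.15 TPM in the clone and 21.0 to 28.3 TPM in WT, and without library 3 of clones 1.2 and 1.3 the difference was -0.74. Without these libraries SEMA3A, SEMA3E and NTN4 lost the call and 4 of the 7 genes in clone 1.2 stayed called, NRP1 (2.42), SEMA3C (2.08), EFNB3 and SEMA5A (1.26). Leaving out only library 3 of clone 1.2 left 2 calls, SEMA3A, SEMA3C, SEMA3E, SEMA5A and NTN4 being lost. Of the 8 melanocyte markers 5 were called lower in this clone (SOX10, MITF, MLANA, DCT and S100A1), and their sum was 40.7 TPM in library 3, 992 TPM at the median and 1180 TPM at the highest, against 1452 to 3264 TPM in WT. Single markers of other cell types also moved in clone 1.2: TP63 (0.825 to 7.65 TPM), COL1A1 (2.09 to 2.43), PECAM1 (2.23 to 12.0) and SNAP25 (10.6 to 22.5, against 0.468 to 1.18 TPM in WT) were called higher, and LUM (0.892 to 1.93 against 2.73 to 26.4 TPM) lower. No other keratinocyte, fibroblast, endothelial or neuron marker was called there. The neuron marker TUBB3 was 71.3 to 146 TPM against 108 to 168 TPM in WT. The 4 neuron markers summed to 95.1 to 158 TPM against 110 to 169 TPM in WT. Of the keratins, KRT14 did not exceed 0.282 TPM, and KRT5 and KRT1 were listed at 0. The part of these markers in the result was not tested.

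SEMA5A went in opposite directions in the R1 clones of WM115, to 0.893 TPM in clone 1.1 and 15.0 TPM in clone 1.2 around 4.78 TPM in WT. In clone 1.3, whose labels disagree, 1 of 48 genes was called (2.08%) against 0.618% of all genes (0.424% higher, 0.194% lower). It was SEMA6D, a transmembrane semaphorin, at 1.90, 1.13 and 4.69 TPM against 0.227 to 0.515 TPM in WT (log2 difference 1.26, adjusted p = 0.0159). No other WM115 library reached 1 TPM, so SEMA6D was tested only because it was high there, and the share of 2.08% rests on it. Without any 1 of the clone's libraries it failed the filter and was not tested, and the call was lost with only the groups compared (adjusted p = 0.219). At an unadjusted p under 0.05 the limma count in clone 1.3 was 9 of 48, beside 2212 of all 16997 genes. NRP1 was 19.3, 68.4 and 6.96 TPM and SEMA3C 14.7, 75.5 and 2.38 TPM in its libraries, so that library 2 was high and library 3 low in both.

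A375 clones carried fewer calls, most of them in R1 clone 1.2. It had 7 of 50 called (14%), 5 higher and 2 lower, against 4.01% of all 16692 genes tested (2.57% higher, 1.44% lower), with a median of 0.38 over the tested axon guidance genes and 0.07 over all genes. The class 3 semaphorins SEMA3C, SEMA3D and SEMA3F and the co-receptor NRP1 rose, SEMA3G fell, and SEMA3A, SEMA3B and SEMA3E were not called. SEMA3D averaged 9.26 ± 0.633 against 1.53 ± 0.876 TPM (SD, n = 4 each; log2 difference 2.09, SE 0.23, adjusted p = 1.41e-05), SEMA3F 16.5 ± 3.74 against 5.24 ± 1.22 TPM (1.49), SEMA3C 83.1 ± 23.6 against 31.0 ± 8.55 TPM (1.39) and NRP1 62.5 ± 3.95 against 21.1 ± 8.64 TPM (1.60). EPHA2 averaged 217 ± 31.7 against 70.2 ± 29.6 TPM (log2 difference 1.69, SE 0.29, adjusted p = 0.00116) and was the most abundant of the 69 genes in that clone. SEMA6A, a transmembrane semaphorin, fell from 5.04 ± 1.02 to 1.62 ± 0.332 TPM (log2 difference -1.20). The fibroblast genes COL1A1 and LUM were called higher in the same clone, at 2.10 to 4.55 and 3.69 to 7.45 TPM, and the 4 fibroblast markers summed to 10.1 to 14.2 TPM against 3.02 to 6.47 TPM in WT. The melanocyte marker S100A1 was called lower (log2 difference -2.07), and the 8 melanocyte markers summed to 541 to 697 TPM against 981 to 1692 TPM in WT, without overlap. The part of these markers in the result was not tested. Among libraries with mitochondrial transcripts below 2.5% of TPM, which held 3 of 4 WT and 2 of 4 clone libraries, SEMA3D stayed called (log2 difference 2.18). The other 6 genes kept their direction there (0.94 to 1.64 in size) and did not pass.

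SEMA3G, a secreted semaphorin, was the only gene of the 69 called in 3 A375 clones, and its direction differed between them. It was 3.19, 4.0, 1.90 and 3.23 TPM in WT, 1.92, 0.377 and 0.493 TPM in clone 1.1, and 1.12, 0.457, 1.08 and 0.889 TPM in clone 1.2. R1 clone 1.2 lay below WT throughout, and 1 library of clone 1.1 lay just above the lowest WT library. The difference was -1.14 in clone 1.1 (SE 0.26, adjusted p = 0.0484) and -1.1 in clone 1.2 (SE 0.25, adjusted p = 0.00883). R4 clone 4.1 had 18.8, 20.0, 13.7 and 15.5 TPM, all above WT (log2 difference 2.15, SE 0.25, adjusted p = 0.00012), while R4 clone 4.2 had 3.57, 2.11 and 1.87 TPM, near WT. SEMA3G was the only call in clone 1.1 (1 of 50, 2.0%, against 0.731% of all genes, 0.186% higher and 0.545% lower). That call was lost in 12 of 18 alternative fits, among them those without WT library 1, 2 or 4 or clone library 2 or 3, and the call in clone 1.2 was lost without library 2 of WT or of the clone. Of the 8 melanocyte markers, MITF alone was called in clone 1.1. It was lower, at 7.41 to 10.3 TPM against 18.7 to 26.7 TPM in WT (log2 difference -1.31). The part of this marker in the SEMA3G result was not tested.

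NRP1 was called in 3 clones, in A375 clone 1.2 and in WM115 clones 1.2 and 4.2. Its libraries were 21.9, 11.6, 18.6 and 32.4 TPM in A375 WT, 64.4, 57.4, 66.6 and 61.6 TPM in clone 1.2, 40.0, 80.4 and 53.3 TPM in clone 1.1, 28.1, 12.1, 17.4 and 42.3 TPM in clone 4.1, and 39, 40.4 and 39 TPM in clone 4.2. All clones but 4.1 were above every A375 WT library. Clone 1.1 missed the threshold (log2 difference 1.44, adjusted p = 0.0617), as did clone 4.2 (0.96, adjusted p = 0.516). In WM115 it was 43.7, 33.2 and 39 TPM in clone 4.2 (log2 difference 1.54, adjusted p = 0.0378), above all WT libraries, and this call was lost in 9 of 19 alternative fits, among them those without WT library 1, 2 or 4 or any library of the clone. WM115 clones 1.1 and 4.1 averaged 28.0 and 32.3 TPM against 13.8 TPM in WT and were not called (adjusted p = 0.0918 and 0.0763).

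The A375 R4 clones had few calls. In clone 4.1, 3 of 50 genes were called (6.0%) against 0.653% of all genes (0.246% higher, 0.407% lower). Besides SEMA3G, NEO1 fell from 5.19 ± 1.73 to 1.34 ± 0.329 TPM (log2 difference -1.37, SE 0.23, adjusted p = 0.00327) and EPHA7 from 1.87 ± 0.467 to 0.231 ± 0.167 TPM (log2 difference -1.22, SE 0.24, adjusted p = 0.0157). These values are from a fit without pairing, although same-numbered libraries of clone 4.1 and WT deviated together (correlations of 0.326 to 0.776). With the replicate number as a block, 246 of all 15250 genes were called, and the axon guidance count is given at the end. In clone 4.2, 1 of 50 was called (2.0%) against 0.473% of all genes (0.108% higher, 0.365% lower). It was ROBO2, at 1.33, 0.076 and 0.096 TPM against 4.5, 7.77, 4.57 and 2.6 TPM in WT (log2 difference -1.99, SE 0.37, adjusted p = 0.0134). Of these genes, ROBO2 and EPHA7 were listed at 0 in WM115 and NEO1 did not exceed 1.07 TPM there. The call of EPHA7 was lost without WT library 1 or clone library 2 or 3, and that of ROBO2 without WT library 2 or clone library 2 or 3.

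**Figure D5:**
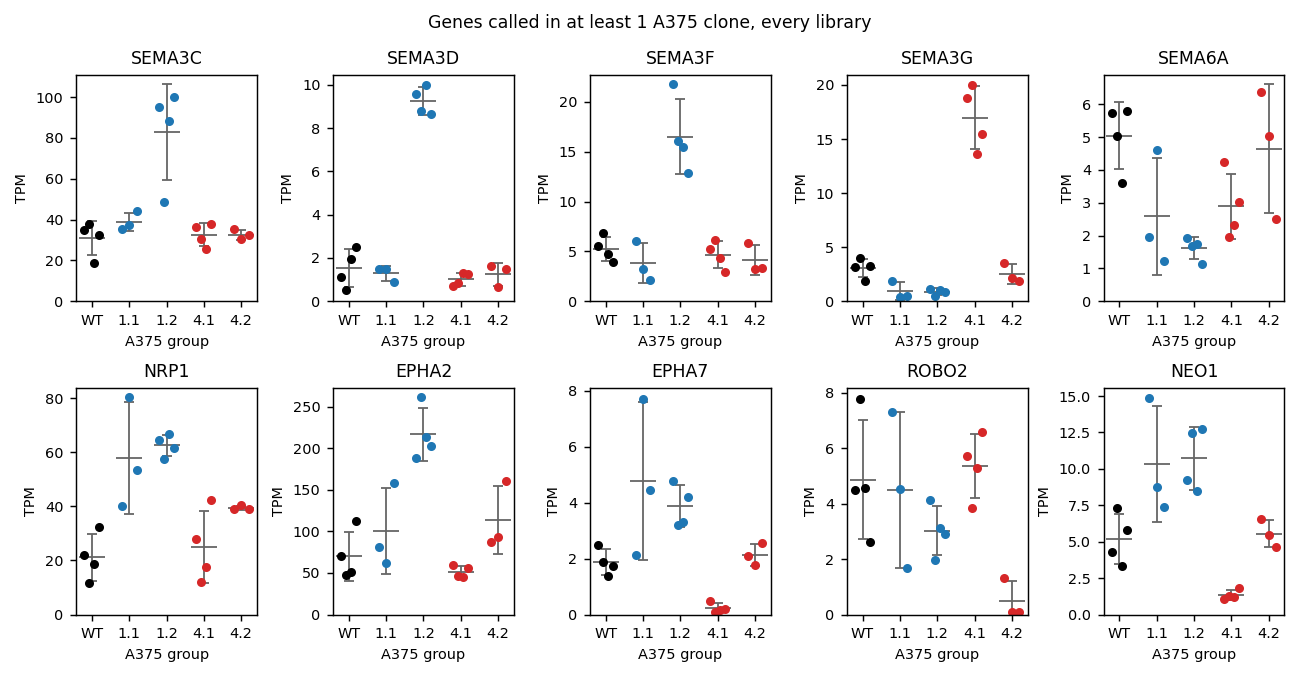
TPM of the 10 genes called in at least 1 A375 clone, by group. Each point is 1 library (black WT, blue R1 clones, red R4 clones), grey bars show the mean and SD, and the axes start at 0. Clone 1.2 is high for SEMA3C, SEMA3D, SEMA3F, NRP1 and EPHA2, clone 4.1 is high for SEMA3G and low for NEO1 and EPHA7, and clone 4.2 is low for ROBO2.

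A comparison of the regions used the 8 clones whose labels agree as units, with the line as a covariate. R1 and R4 clones differed in 0 of 57 tested genes and in 0 of all 18662 genes (0%), by limma. At an unadjusted p under 0.05 there were 5 of the 57 and 767 of all genes. These 5 were PLXND1 (log2 difference R1 minus R4 of 1.34, 95% interval 0.40 to 2.28), SEMA3C (0.85), SEMA6A (-0.57), EPHB2 (-1.16) and EFNB2 (-0.69), each with an adjusted p of 0.981. With libraries in place of clones as units, 3 of these genes were called, beside 200 of all 18662 genes. That fit counts libraries of the same clone as replicates of a deletion, which they are not.

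The difference between the lines in the effect of region was likewise called for 0 of 57 and 0 of all genes (0%), by limma. Unadjusted, 5 of the 57 and 555 of all genes passed. ROBO4 had the smallest adjusted p of limma, 0.659, with a log2 difference (WM115 R1 minus R4, less the same in A375) of -4.04 and a 95% interval of -5.52 to -2.56. PLXND1 followed at 2.11 (95% interval 1.16 to 3.05, adjusted p = 0.782). NRP2, EPHA7 and NEO1 were the other three. A change particular to the R4 deletion or to WM115 was thus not established by these tests for any of the genes above.

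Other genes of the axon guidance pathway were read from 2 further lists. Of 24 co-receptors and adhesion partners, 17 were tested in each line, and the counts called per clone were 0, 4, 0 and 0 in A375 clones 1.1, 1.2, 4.1 and 4.2. The 4 in clone 1.2 are 23.5%, against 4.01% of all genes. In WM115 clones 1.1, 1.2, 1.3, 4.1 and 4.2 the counts were 2, 4, 0, 3 and 2. These are 11.8, 23.5, 0, 17.6 and 11.8% of those tested, against 4.88, 7.61, 0.618, 7.57 and 6.60% of all genes. L1CAM, a cell adhesion molecule of axons that pairs with NRP1, averaged 164 TPM in A375 clone 1.2 against 17.0 TPM in WT (log2 difference 3.26, adjusted p = 1.49e-06) and 405 TPM in WM115 clone 1.2 against 55.0 TPM in WT (2.78, adjusted p = 0.000968). In A375 clone 1.2 its relative NRCAM fell (log2 difference -2.84). In the R4 clones of WM115, PTK7 rose (1.1 and 1.16) and CHL1, a close homologue of L1CAM, fell (-2.81 and -2.05).

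Of 41 intracellular effectors 35 were tested in each line. Called were 3 in A375 clone 1.2 (8.57%, against 4.01% of all genes) and 0 in the other A375 clones. In WM115 clones 1.1, 1.2, 1.3, 4.1 and 4.2 there were 6, 5, 0, 4 and 7. They are 17.1, 14.3, 0, 11.4 and 20.0% of those tested, beside the same shares of all genes as above. NGEF, the exchange factor ephexin that acts downstream of EphA receptors, averaged 67.8 and 64.2 TPM in WM115 clones 4.1 and 4.2 against 10.8 TPM in WT (log2 difference 2.67 and 2.58; adjusted p = 0.000175 and 0.000364). DPYSL2, a mediator of semaphorin signalling, rose in WM115 clones 1.1, 1.2, 4.1 and 4.2 (1.04 to 1.47), and MICAL1, an oxidase that plexins act through, fell in clones 1.1, 4.1 and 4.2 (-1.36 to -1.17). For clones with 0 calls, limma gave 5 effectors in A375 clone 1.1, 5 in clone 4.1, 4 in clone 4.2 and 8 in WM115 clone 1.3 at an unadjusted p under 0.05. The corresponding counts of co-receptors were 6, 2, 3 and 3. Over all genes they were 1679, 1758 and 1297 of 16692 in these A375 clones and 2212 of 16997 in WM115 clone 1.3.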

How the data were processed

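The authors deposited gene-level and transcript-level TPM for 39 libraries of A375 and WM115; per the labels' protocols, polyadenylated RNA was selected and cDNA primed with random hexamers. The submitters' processing notes name DRAGEN and GRCh38, without versions; the annotation and the strand setting are not given in the sources used here, so reads of a gene and an antisense partner cannot be told apart. Read depth is unknown. A further 200 lines of the gene-level file repeated others and were dropped, and 6 columns matched no sample and were not used.

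Genes with at least 1 TPM in at least 3 libraries entered a linear model of log2(TPM + 1) by limma (version 3.58.1, R 4.3.3; 1 coefficient per group, trend on mean expression, two-sided, Benjamini-Hochberg over all genes tested), per line for clones against WT and over all 39 libraries for the lines. Region comparisons used clone means. The fits were tested on simulated data with changes planted only in genes of higher WT level, so recovery of changes in low genes was not tested. Genes were named with values if called in a clone, among the 3 most abundant in WT, or among the 5 most different in each direction between lines; values per library are given for those called alike in both clones of a region or in at least 3 clones. The genes and lists were chosen with earlier results of these data known. Same-numbered libraries of A375 clone 4.1 and WT deviated together (4 correlations of 0.326 to 0.776), the only comparison in which every pair did. Alternatives changed the pseudocount, filter, scaling, variance model, libraries and mitochondrial set. Promoters are from RefSeq, GRCh38.p14.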

Additional observations from a re-analysis of the deposited data

Results flagged for a closer look

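Of 169 sets of a gene and a group with 4 or 5 libraries, 9 held a library far from the others of its group, where chance alone gives about 1 in 20 sets. In A375 WT these were SEMA5A in library 3 (0.246 TPM, high), SLIT2 in library 4 (6.42 TPM, high) and SEMA3B in library 4 (123 TPM, low). In A375 clone 4.1 they were SEMA6D in library 2 (0.038 TPM, high), EPHA4 in library 2 (1.14 TPM, low) and EPHB2 in library 1 (32.2 TPM, high), and in A375 clone 1.2 SEMA3B in library 2 (119 TPM, low). In WM115 WT they were PLXNB1 (32.1 TPM, low) and EFNB3 (1.74 TPM, low), both in library 3. The PLXNB1 call in WM115 clone 1.1 and the EFNB3 call in WM115 clone 1.2 held when that library was left out.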

How the results depend on the processing

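No value reversed direction. Of the 49 calls of a gene in a clone, 9 held under every alternative in which they were tested and 37 were lost within 1 mitochondrial set. With a pseudocount of 0.1 the count of called axon guidance genes was 11 in A375 clone 1.2, and 8 and 11 in WM115 clones 1.1 and 1.2. All-gene counts were 862 of 16692, and 1447 and 1672 of 16997, in that order. Without a filter on low values A375 clone 1.1 had 0, beside 96 of all 37578 genes. At a mean of at least 5 TPM, with fewer genes tested, the axon guidance counts were 0 in A375 clones 1.1 and 4.2 and WM115 clone 1.3, 4 and 8 in WM115 clones 4.1 and 4.2, and 7 between the lines. All-gene counts were 68 and 31 of 11000, 25, 732 and 708 of 11203, and 2214 of 11268, in that order. With only the groups compared the axon guidance counts were 0 in A375 clones 1.1 and 4.2 and WM115 clone 1.3, and 4 in WM115 clone 1.2. All-gene counts were 34 of 15033, 40 of 15107, 62 of 15516 and 787 of 15747. Without a minimum difference the axon guidance counts were 14 and 5 in A375 clones 1.2 and 4.1, 11, 15, 2 and 17 in WM115 clones 1.1, 1.2, 1.3 and 4.1, and 29 between the lines. All-gene counts rose too, to 1423 and 219 of 16692, to 3732, 3839, 180 and 4110 of 16997, and to 9105 of 18662. Within the mitochondrial set of most WT libraries, with fewer libraries, the axon guidance counts were 0, 2, 1 and 0 in A375 clones 1.1, 1.2, 4.1 and 4.2. All-gene counts there were 28, 124, 37 and 23 of 15911. In WM115 clones 1.1, 1.2, 1.3 and 4.2 the axon guidance counts were 3, 4, 0 and 2, beside 371, 898, 53 and 568 of all 16682 genes. WM115 clone 4.1 had 1 library in that set, so its count is left out. With libraries as units, which are not replicates of a deletion, 3 axon guidance genes were called between regions, beside 200 of all 18662 genes. Without library 3 of WM115 clones 1.2 and 1.3, an alternative chosen after seeing the data, 4 and 3 axon guidance genes were called in those clones. All-gene counts were 673 and 415 of 16711.

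With the replicate number as a block the axon guidance counts were 0 in A375 clones 1.1 and 4.2, 5 in clone 1.2 and 4 in clone 4.1, and 8, 2, 0, 9 and 11 in WM115 clones 1.1, 1.2, 1.3, 4.1 and 4.2, but the numbers pair only A375 clone 4.1. All-gene counts were 1 of 15033, 15 of 15107, 418 of 15759 and 246 of 15250 in the same order in A375. In WM115 they were 1118 of 15464, 127 of 15747, 0 of 15516, 938 of 15518 and 1005 of 15404. Leaving out 1 library gave 0 to 4, 6 to 10, 2 to 4 and 0 to 1 calls in A375 clones 1.1, 1.2, 4.1 and 4.2. It gave 5 to 7, 2 to 11, 0 to 2, 9 to 13 and 8 to 13 in WM115 clones 1.1, 1.2, 1.3, 4.1 and 4.2 (8 without library 1 of clone 4.2). Over all genes it gave 56 to 223, 510 to 761, 75 to 138 and 49 to 92 calls in the A375 clones. In the WM115 clones it gave 663 to 1034, 501 to 1656, 73 to 321, 970 to 1501 and 784 to 1462. Median-of-ratios scaling moved the share of higher calls over all genes in WM115 clones 1.1, 4.1 and 4.2 from 25, 42.3 and 38.2% to 38.0, 55.6 and 49.4%, and the all-gene medians there from -0.12, -0.10 and -0.10 to -0.02, 0 and 0. Quantile normalization moved it from 25.4 to 39.8% in A375 clone 1.1 and from 64.1 to 51.9% in clone 1.2. Causes were not tested beyond those named.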
